A study of Mus musculus with 6 samples.

Results

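The cyclins and cyclin-dependent kinases described here were the 10 genes Ccnd2, Ccnd3, Ccne1, Ccne2, Ccna2, Ccnb1, Cdk1, Cdk2, Cdk4 and Cdk6, chosen by gene symbol from the 39017 genes of the count table, and each symbol matched 1 gene. They were measured by RNA-seq in induced germinal center-like B cells (iGBs), which are mouse splenic B cells expanded ex vivo on 40LB feeder cells that present CD40L and BAFF, here with IL-4 for 3.5 days. The labels give 5 ng/ml IL-4, while the study's methods give a lower dose, and which was used is not settled by these sources. All 6 libraries came from C57BL6/J mice that carry the Cg1-cre allele. The 3 Control libraries (Cg1-cre) had intact Prmt1, the gene of the main type I arginine methyltransferase, and the 3 Prmt1-null libraries (Cg1-cre, Prmt1f/f) had loxP-flanked Prmt1. Each group held 2 females and 1 male, with 1 library per mouse. Mouse ages were not given in the labels. The Cre is driven from the Ighg1 (Cγ1) locus, which is transcribed in activated B cells, so that deletion follows activation and the cultures can hold cells that have not yet deleted. RNA was taken from whole cultures after depletion of the feeder cells, and fewer cells of a type and less RNA per cell cannot be told apart in such bulk samples.

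Cyclins are the regulatory subunits of cyclin-dependent kinases (CDKs). D-type cyclins bind CDK4 and CDK6 and start the phosphorylation of the retinoblastoma protein in G1, E-type cyclins bind CDK2 at the entry into S phase, cyclin A2 works with CDK2 and CDK1 through S and G2, and cyclin B1 with CDK1 drives mitosis. Cyclin D2 and cyclin D3 are the D-type cyclins used by B cells, and cyclin D3 is needed for the expansion of germinal center B cells in the dark zone. The levels of the E, A and B cyclins rise and fall with the cell cycle, through transcription factors such as the E2F family and through ubiquitin-dependent destruction of the proteins, which RNA-seq does not measure.

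Of the 10 genes, only Ccne2, which encodes cyclin E2, differed between the groups past the threshold used throughout, an adjusted p under 0.05 in the quasi-likelihood test of edgeR, adjusted by Benjamini and Hochberg's method over 18268 tested genes. Its RNA in Prmt1-null iGBs was at 74.3% of the Control level. Over all tested genes, 1.19% passed the same threshold, with 0.591% higher and 0.602% lower in Prmt1-null cells, and 1 gene of 10 is too few to be read against that share. The other 9 genes, including all 4 CDKs and both D-type cyclins, did not pass, and none of the 10 differed by more than 0.429 on the log2 scale.

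Start regions are shown first, searched for words known from promoters of cell cycle genes. Windows from 250 bases before to 50 bases after the start site were taken from RefSeq on GRCm38.p6, and 7 of the 10 genes matched the table of windows used, with 8 windows in all because Ccnd3 had 2. Windows of Ccnd2, Ccne2 and Ccna2 were not analysed here. Searched on both strands were the E2F words TTTCCCGC, TTTCGCGC, TTTGCCGC and TTTGGCGC, the E-box CACGTG, the CCAAT box, the CHR word TTTGAA of late cell cycle genes and the GC box GGGCGG. None of the words contains another. Printed are Cdk1 (chr10:69352863-69353162, minus strand) and Cdk2 (chr10:128705002-128705301, minus strand), the members whose windows held an E2F word although neither gene passed the threshold, and Cdk4 (chr10:127063285-127063584, plus strand), whose window held the most E-boxes. All are written 5′ to 3′ along the gene, and capitals mark the E2F, E-box, CCAAT and CHR words, on either strand.
Cdk1: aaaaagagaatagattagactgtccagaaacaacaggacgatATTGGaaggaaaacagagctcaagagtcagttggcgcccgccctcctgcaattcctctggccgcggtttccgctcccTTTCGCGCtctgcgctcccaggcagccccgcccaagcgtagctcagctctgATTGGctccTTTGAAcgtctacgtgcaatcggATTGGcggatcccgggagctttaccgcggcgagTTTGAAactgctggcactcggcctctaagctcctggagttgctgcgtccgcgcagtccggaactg
Cdk2: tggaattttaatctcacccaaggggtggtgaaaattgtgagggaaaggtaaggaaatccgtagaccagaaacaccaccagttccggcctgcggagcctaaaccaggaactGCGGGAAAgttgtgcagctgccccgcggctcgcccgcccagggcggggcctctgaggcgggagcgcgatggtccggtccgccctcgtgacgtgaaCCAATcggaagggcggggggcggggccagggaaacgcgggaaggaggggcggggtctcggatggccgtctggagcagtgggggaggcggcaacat
Cdk4: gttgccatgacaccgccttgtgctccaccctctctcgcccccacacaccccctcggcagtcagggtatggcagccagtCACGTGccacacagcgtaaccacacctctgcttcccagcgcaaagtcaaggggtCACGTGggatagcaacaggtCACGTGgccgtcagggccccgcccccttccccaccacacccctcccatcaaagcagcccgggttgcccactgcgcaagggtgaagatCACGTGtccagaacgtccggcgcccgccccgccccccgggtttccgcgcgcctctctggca

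The Cdk1 window held the E2F word at −131 from the start site, 3 CCAAT boxes read as ATTGG at −208, −80 and −48, and the CHR word at −71 and −15. The Cdk2 window held an E2F word on the opposite strand, read as GCGGGAAA, at −140 and a CCAAT box at −45. Of all 32817 windows of the same length, 2.26% held an E2F word, 37.4% a CCAAT box and 17.9% the CHR word. The Cdk4 window held CACGTG at −172, −118, −98 and −11, and the Cdk6 window held it at −220, against 7.15% of all windows with at least 1. The Ccnb1 window held CCAAT at −99 and −67, and 1 of the 2 Ccnd3 windows held it at −108. The Ccne1 window held none of these words, only GC boxes, which 35.6% of all windows held. A word in a window is a description of its sequence and was not read as a binding site.

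The libraries held between 45343250 and 62774232 counts in all, and the totals of the groups were not separated (two-sided exact permutation test, p = 0.4, where 3 against 3 libraries cannot go below 0.1). Prmt1 was measured at 3964.5, 3924.5 and 4838 normalized counts in the Control. Libraries of the Prmt1-null group held 1744.5, 1477.7 and 1477.5, or 36.9% of the Control level (log2 fold change −1.44, SE 0.095, edgeR adjusted p = 1.115e-05), and the groups did not overlap. A normalized count here is a read count scaled to the mean effective library size. The summed level of 8 B cell markers ran from 366000 to 386700 in the Control and from 383100 to 403500 in the Prmt1-null libraries, and 1 of the 8, Cr2, fell (log2 fold change −0.48, edgeR adjusted p = 0.0241). The summed level of 7 plasma cell markers ran from 64920 to 71880 and from 74880 to 79630, higher in every Prmt1-null library (exact permutation test, p = 0.1), and 0 of the 6 tested genes of that list passed in edgeR, with Tnfrsf17 at or near 0 in every library and not tested. Of that list, Xbp1 (18900, 18430 and 18990 against 20850, 24470 and 23630) and Slamf7 (11660, 11330 and 11250 against 13580, 13650 and 13350) were higher in every Prmt1-null library, with adjusted p of 0.0571 and 0.0506. The other 4 tested genes overlapped between the groups, Sdc1, Prdm1 and Irf4 with a higher and Jchain with a lower mean in Prmt1-null libraries. The fibroblast markers of the feeder cells summed to between 1526 and 1766 and between 1674 and 2168, with Lum and Postn at 0 in every library. Among them, Col1a1 (331.7, 396 and 339.4 against 474.9, 429.6 and 546.4) and Sparc (65.61, 91.31 and 76.02 against 97.2, 100.5 and 165.4) were higher in every Prmt1-null library. Col1a2, Col3a1, Fn1, Pdgfrb, Thy1 and Dcn overlapped between the groups, Pdgfrb with a lower mean in Prmt1-null libraries. In edgeR 0 of the 8 tested fibroblast markers passed. T cell markers ran from 1296 to 1507 against 1390 to 1563. Nearly all of that sum was Lck (1340, 1384 and 1244 against 1394, 1482 and 1356). Cd3e, Cd3d, Cd3g, Cd4 and Cd8a were at 57.95 or less in every library. Myeloid markers ran from 2088 to 2380 against 2208 to 2521, with 1 of the 5 myeloid markers, Adgre1, past the threshold (log2 fold change 0.73, edgeR adjusted p = 0.0319). The other 4 overlapped between the groups, Csf1r and Itgam with a higher and Cd68 and Lyz2 with a lower mean in Prmt1-null libraries. The part of any of these lists in the results below was not tested.

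D-type cyclins. Ccnd2 (GRCm38 chromosome 6, 127125162 to 127152193, minus strand) was at 17549, 16872 and 16816 normalized counts in the Control libraries and at 17067, 14853 and 17165 in the Prmt1-null libraries. The groups overlapped, and only Prmt1-null replicate 2 was below the others (log2 fold change −0.06, SE 0.068, edgeR adjusted p = 0.759). Ccnd3 (chromosome 17, 47505051 to 47599691, plus strand) was at 6604.6, 7421.4 and 8035.5 in the Control libraries and at 7535, 8212.7 and 7909.1 in the Prmt1-null libraries. These also overlapped, with Control replicate 1 the lowest (log2 fold change 0.10, SE 0.072, adjusted p = 0.597). Its log2 fold change was 0.03 without Control replicate 1 and 0.17 without Control replicate 3. The 95% intervals of the log2 fold change ran from −0.21 to 0.08 for Ccnd2 and from −0.05 to 0.26 for Ccnd3, which leaves room for small differences in either direction.

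The third D-type cyclin gene, Ccnd1, is the form used by many non-lymphoid cells and is included as the closest relative. It was at 168.88, 277.44 and 268.84 normalized counts in the Control and at 222.75, 237.83 and 220.25 in the Prmt1-null libraries, and its level per length (counts scaled to library size per kilobase of exon) was far below those of Ccnd2 and Ccnd3. The groups overlapped (log2 fold change −0.07, SE 0.200, adjusted p = 0.908). Within a library, the ratio of Ccnd2 to Ccnd3 counts was 2.66, 2.27 and 2.09 in the Control and 2.26, 1.81 and 2.17 in the Prmt1-null libraries. These ranges overlapped in part (log2 difference −0.17, and −0.07 without Control replicate 1 or without Prmt1-null replicate 2).

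E-type cyclins. Ccne2 (chromosome 4, 11191351 to 11204779, plus strand) was at 3841.7, 3606.7 and 3048.7 normalized counts in the Control libraries, a mean of 3499 ± 407 (SD, n = 3). It was at 2385.5, 2750.8 and 2660 in the Prmt1-null libraries, a mean of 2599 ± 190 (SD, n = 3). Every Prmt1-null library was below every Control library, and the gap between the groups was smaller than the range within the Control. Ccne2 fell by 0.43 on the log2 scale (SE 0.088, 95% interval −0.62 to −0.24, edgeR adjusted p = 0.0332). Without Control replicate 3, the lowest of its group, the log2 fold change was −0.52 and the adjusted p 0.00418. Leaving out any other single library ended the call, with adjusted p of 0.0914 without Control replicate 1, 0.146 without Control replicate 2, and 0.184, 0.107 and 0.112 without Prmt1-null replicates 1, 2 and 3. The log2 fold change stayed between −0.52 and −0.35 in all 6 of these fits.

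Ccne1 (chromosome 7, 38097984 to 38107534, minus strand), which encodes the other E-type cyclin, had the lowest level per length of the 6 cyclins. It was at 827.4, 842.85 and 923.31 normalized counts in the Control libraries and at 593.33, 762.36 and 810.1 in the Prmt1-null libraries. The groups did not overlap, but Control replicate 1 and Prmt1-null replicate 3, the 2 male libraries, lay close together. The log2 fold change was −0.26 (SE 0.129, 95% interval −0.54 to 0.02), and edgeR's adjusted p was 0.409. Without Prmt1-null replicate 1, the lowest, the log2 fold change was −0.13. The ratio of Ccne2 to Ccne1 was 4.64, 4.28 and 3.3 in the Control and 4.02, 3.61 and 3.28 in the Prmt1-null libraries. Because these overlapped (log2 difference −0.15, −0.0523 without Control replicate 1, −0.0826 without Prmt1-null replicate 3 and −0.298 without Control replicate 3), a fall of Ccne2 relative to its relative was not separated from the spread.

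Cyclins of S phase and mitosis. Ccna2 (chromosome 3, 36564865 to 36572150, minus strand), the cyclin of S and G2 phase, had the highest level per length of the 6 cyclins. It was at 19844, 17791 and 17460 normalized counts in the Control libraries and at 14946, 15803 and 17135 in the Prmt1-null libraries. The groups did not overlap, with Control replicate 3 and Prmt1-null replicate 3 nearest each other (log2 fold change −0.20, SE 0.071, 95% interval −0.36 to −0.05). The unadjusted p was 0.0134 and edgeR's adjusted p 0.211, so Ccna2 did not pass. Ccnb1 (chromosome 13, 100778650 to 100786570, minus strand), the cyclin of mitotic entry, was at 10179, 8683.1 and 8424.4 in the Control and at 8111.2, 8108.5 and 9539.7 in the Prmt1-null libraries. Both groups held 1 library well above the other 2, the male one in each, and the groups overlapped (log2 fold change −0.08, SE 0.083, adjusted p = 0.732).

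Ccnb2, the closest relative of Ccnb1 and also a mitotic cyclin, was at 5474.7, 5453.9 and 5580.6 normalized counts in the Control libraries. It was at 4297.1, 4623.9 and 4908.8 in the Prmt1-null libraries, all below the Control. Its log2 fold change of −0.26 (SE 0.062) had an edgeR adjusted p of 0.0678 and did not pass, while the DESeq2 Wald test gave 0.00995, in a range of 0.00995 to 0.0821 over 7 alternatives. The ratio of Ccna2 to Ccne2 was 5.17, 4.93 and 5.73 in the Control and 6.27, 5.74 and 6.44 in the Prmt1-null libraries (log2 difference 0.22). These did not overlap, but the nearest values, 5.73 and 5.74, all but met. The ratio of Ccnb1 to Ccna2 was 0.513, 0.488 and 0.482 against 0.543, 0.513 and 0.557, with the nearest values equal at the digits printed (log2 difference 0.12). Ratios are given as descriptions without a test.

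CDKs of G1. Cdk4 (chromosome 10, 127063534 to 127067920, plus strand), a partner of the D-type cyclins, had the highest level per length of the 4 kinases, and its start region with the E-boxes is printed above. It was at 14413, 14186 and 14074 normalized counts in the Control libraries, a spread of 1.21% of the mean (SD), and at 14961, 16039 and 16706 in the Prmt1-null libraries. Every Prmt1-null library was above every Control library. The log2 fold change was 0.16 (SE 0.061, 95% interval 0.03 to 0.29), with an unadjusted p of 0.0201 and an edgeR adjusted p of 0.246. Cdk6 (chromosome 5, 3341485 to 3531008, plus strand), the second kinase of the D-type cyclins, was at 2815.1, 2484.6 and 2874.6 in the Control and at 3048.6, 2972 and 2833 in the Prmt1-null libraries. These overlapped (log2 fold change 0.12, SE 0.074, adjusted p = 0.537), and without Control replicate 2 the log2 fold change was 0.05. The ratio of Cdk6 to Cdk4 was 0.195, 0.175 and 0.204 against 0.204, 0.185 and 0.17 and overlapped as well.

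CDKs of S phase and mitosis. Cdk2 (chromosome 10, 128697939 to 128705031, minus strand), the partner of the E-type and A-type cyclins, was at 4000.9, 3885 and 3795.7 normalized counts in the Control libraries. In the Prmt1-null libraries it was at 3396.9, 3057.7 and 3791.5. All 3 were below the Control, but Prmt1-null replicate 3 lay almost at the level of Control replicate 3 (log2 fold change −0.19, SE 0.076, edgeR adjusted p = 0.284). Cdk1 (chromosome 10, 69335146 to 69352938, minus strand), the kinase of mitotic entry, whose start region is the one with the CHR words, was at 3124.9, 3047.4 and 3053.1 in the Control and at 2857.3, 3174.8 and 3225.3 in the Prmt1-null libraries. Prmt1-null libraries lay on both sides of the Control, and the log2 fold change was 0.01 (SE 0.068, 95% interval −0.14 to 0.15, adjusted p = 0.983). The ratio of Cdk1 to Cdk2 was 0.781, 0.784 and 0.804 in the Control and 0.841, 1.04 and 0.851 in the Prmt1-null libraries, which did not overlap (log2 difference 0.20). Prmt1-null replicate 2, with the lowest Cdk2 count, gave the highest of these ratios, and without it the log2 difference was 0.0988. Without it the log2 fold change of Cdk2 was −0.11.

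**Figure D1:**
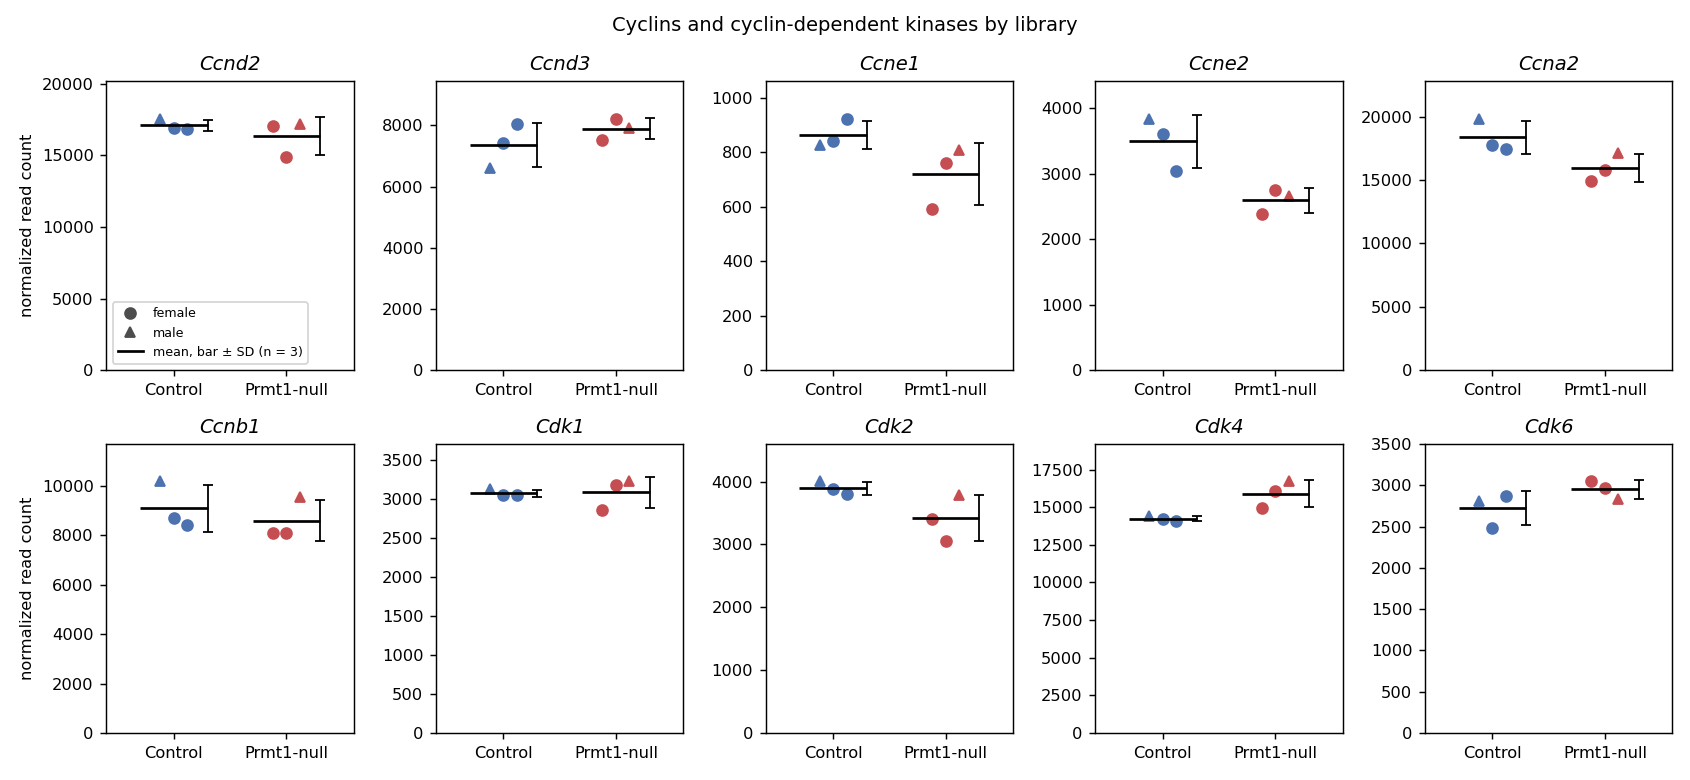
Normalized read counts of the 10 genes (vertical axes, each from 0) in the 3 Control and 3 Prmt1-null libraries; circles are female and triangles male mice, lines are group means and bars ± SD (n = 3). The groups do not overlap for Ccne1, Ccne2, Ccna2 and Cdk2, all lower in Prmt1-null libraries, and for Cdk4, which is higher.

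Among the 10 genes, 6 had a log2 fold change below 0 and 4 above it, with a median of −0.0724 against −0.000816 over all tested genes. The median was −0.0148 without Control replicate 1, −0.0238 without Prmt1-null replicate 2 and −0.132 without Prmt1-null replicate 3. The groups did not overlap for 5 genes, 4 lower and 1 higher in Prmt1-null libraries, where 19.9% of all tested genes did not overlap, 9.92% lower and 9.95% higher. An unadjusted p under 0.05 was reached by 4 genes, Ccne2, Ccna2, Cdk2 and Cdk4, against 13.5% of all tested genes. The 4 genes lower without overlap were Ccne1, Ccne2, Ccna2 and Cdk2, of which Ccne2 alone passed, and the 4 genes with a value above 0 were Ccnd3, Cdk1, Cdk4 and Cdk6. Counts on so few genes are a description.

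**Figure D2:**
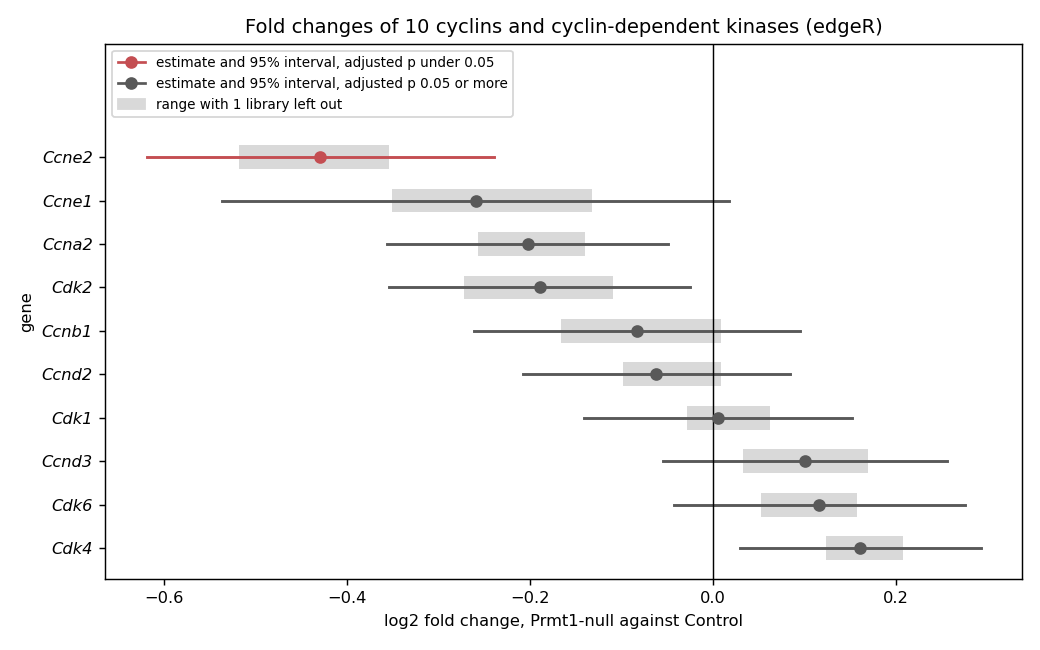
Log2 fold changes of the 10 genes, Prmt1-null against Control (horizontal axis), with points for edgeR's estimate, lines for its 95% interval and grey boxes for the range with 1 library left out. Ccne2, in red, is the only gene with an adjusted p under 0.05, and its interval runs from −0.62 to −0.24. Of the other genes, Ccna2, Cdk2 and Cdk4 have intervals that leave out 0 before adjustment.

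The mouse's sex was recorded for each library and was balanced between the groups. In each group the male library had the highest count for 7 of the 10 genes, of which 6 were shared between the groups, Ccna2 and Ccnb1 among them, with Ccne2 in the Control and Ccne1 in the Prmt1-null group as the others. The same share over all tested genes is not given here. With 1 male library per group, sex cannot be told apart from a single library in this count. Within the 4 female libraries the sign of the log2 fold change was that of all 6 libraries for 9 of the 10 genes, Cdk1 being the exception at −0.01. Between the 2 male libraries, which give a value without a test, it was so for all 10. For Ccne2 the female value was −0.37 (edgeR adjusted p = 0.147) and the male value −0.53, and no member passed in the females alone. For Ccne1 the female value was −0.38 (adjusted p = 0.341) and the male value −0.03, and whether the sexes differ was not tested.

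Levels were compared between genes only as CPM per kb, the counts scaled to library size and divided by the kilobases of exon, with all annotated exons of a gene as its length. In Control cells Ccna2 (81.1 ± 5.70, SD, n = 3) and Cdk4 (79.0 ± 0.958) led, followed by Ccnb2 (64.8), Ccnb1 (38.9), Ccnd2 (32.7), Ccne2 (18.1), Ccnd3 (15.1), Cdk2 (11.3), Cdk1 (11.2), Ccne1 (5.86), Cdk6 (3.51) and Ccnd1 (0.913). Over all 6 libraries the ranges overlapped for the neighbours Ccna2 and Cdk4, Ccne2 and Ccnd3, and Cdk2 and Cdk1, whose order is therefore not set. In Prmt1-null cells Cdk4 (88.3 ± 4.89, SD, n = 3) was above Ccna2 (70.5 ± 4.87), and the ranges of the 2 genes, which met in the Control, did not overlap there. Ccne2 (13.4) was below Ccnd3 (16.2) in Prmt1-null cells. The order also depended on the length used. With the length of 1 principal transcript per gene, a setting added after the values were seen, Cdk4 (125) was ahead of Ccna2 (112) in Control cells too, and Ccnd3 was at 62.8, ahead of Ccnd2 at 48.7, since its annotated exons span 8.78 kb and its principal transcript 2.11 kb.

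**Figure D3:**
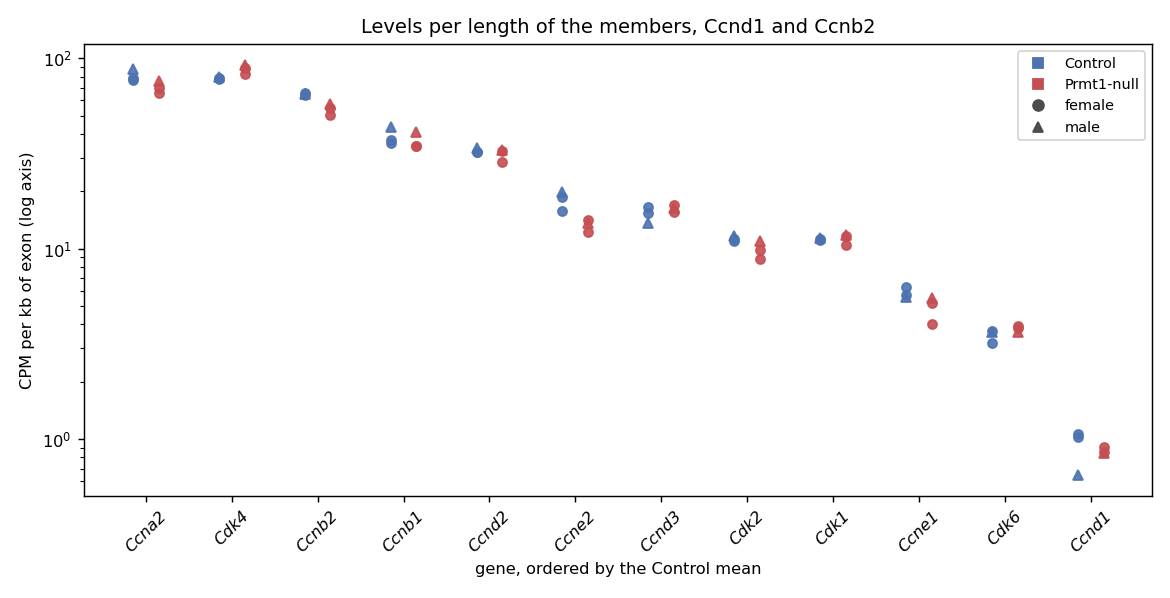
Levels of the 10 genes, Ccnd1 and Ccnb2 in CPM per kb of exon (vertical log axis), ordered by the Control mean, with blue for Control, red for Prmt1-null, circles for female and triangles for male mice. Ccna2 and Cdk4 lie together at the top in the Control and apart in Prmt1-null cells, and Ccnd1 lies under all others at about 0.913.

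Several of the genes share exon sequence with a gene on the opposite strand. Because the strand setting of the counting is not given in the sources used here, reads from the shared stretch may belong to either gene. Of the exon length of Ccne2, 609 nt (17.4%) were shared with Ints8, which encodes an Integrator subunit and did not pass (log2 fold change −0.02, edgeR adjusted p = 0.944). Of Cdk4, 641 nt (19.7%) were shared with Tspan31, a tetraspanin gene. Tspan31 was itself higher in Prmt1-null cells, at 8312.9, 8203.7 and 8328.5 normalized counts in the Control and 9746.4, 9581.6 and 10724 in the Prmt1-null libraries (log2 fold change 0.27, SE 0.061, adjusted p = 0.0456). The higher Cdk4 counts therefore lie beside a neighbour that rose, and the part of the shared reads was not tested. Of Ccna2, 510 nt (12.5%) were shared with Exosc9, an RNA exosome gene (log2 fold change −0.17, adjusted p = 0.433). Shares were 7.86% or less for Ccnd2, Ccnd3, Cdk2 and Cdk6, and Ccne1, Ccnb1 and Cdk1 shared none.

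**Figure D4:**
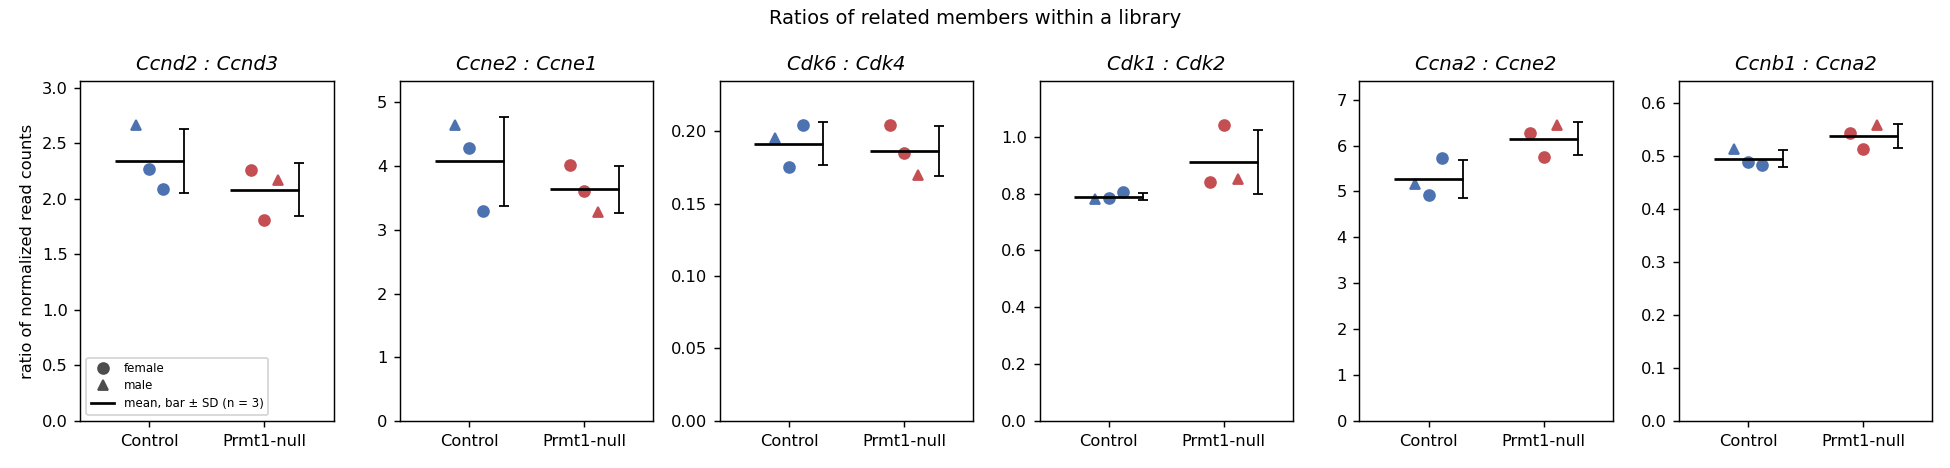
Ratios of the normalized read counts of 2 related genes within each library (vertical axes from 0), with circles for female and triangles for male mice, lines for group means and bars for ± SD (n = 3). The first 3 ratios, within the D-type cyclins, the E-type cyclins and the G1 kinases, overlap between the groups, while Cdk1 to Cdk2, Ccna2 to Ccne2 and Ccnb1 to Ccna2 have a higher mean in Prmt1-null libraries. The nearest values of the groups all but meet for Ccna2 to Ccne2 (5.73 and 5.74) and for Ccnb1 to Ccna2 (both 0.513 at the digits printed).

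The genes around the cyclin and CDK core were taken from 8 lists with 95 genes, of which 89 could be tested. Of these 89, E2f2 passed, which is 1.12% against 1.19% of all tested genes. By sign, 67 had a log2 fold change below 0 and 22 above it, so that 75.3% were below 0, against 50.1% of all tested genes. The groups did not overlap for 24 of the 89 (27.0%), against 19.9% of all tested genes, and 21 (23.6%) had an unadjusted p under 0.05, against 13.5%. The lists were chosen with earlier results of these data known and hold both activators and inhibitors of CDKs, so these shares are a description. E2f2 encodes an activator of the E2F family, which drives transcription of genes for S phase entry. It was at 8730.8, 8317.8 and 9478.8 normalized counts in the Control libraries and at 6805, 6341.3 and 6570.6 in the Prmt1-null libraries. The groups lay well apart, and E2f2 fell by 0.43 on the log2 scale (SE 0.064, edgeR adjusted p = 0.0061). Without Prmt1-null replicate 2 the log2 fold change was −0.40 and the adjusted p 0.0682, and E2f2 passed without each of the other 5 libraries. Of the 19 genes in its list of pocket proteins, E2F and mitotic transcription factors, 16 were below 0 and 3 above it, with a median of −0.112.

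Of the other cyclins of the cell cycle, 0 of 3 tested genes passed in edgeR and 2 had an unadjusted p under 0.05, with all 3 below 0 and Ccnb2 the one with the smallest p. These counts are small and are read beside the 13.5% of all tested genes with an unadjusted p under 0.05. Of the 14 tested cyclins outside the cell cycle core, 0 passed and 5 had an unadjusted p under 0.05, with 9 below 0 and a median of −0.0832. The smallest p there was that of Ccnt1, the cyclin of the transcription elongation kinase CDK9, at 13404, 12481 and 12610 against 11656, 11132 and 11343 normalized counts (log2 fold change −0.17, SE 0.058, edgeR adjusted p = 0.187). Of 19 other CDKs, 0 passed, 2 had an unadjusted p under 0.05 and 13 were below 0, with a median of −0.0574. Cdk11b had the smallest p in that list (log2 fold change −0.26, SE 0.113, adjusted p = 0.318), and the largest differences in it, down to −1.02, belonged to genes with fewer than 100 normalized counts. Ccnb2 passed in edgeR when no filter on low counts was used (adjusted p = 0.0187).

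Direct regulators of the kinases are read beside the shares of all tested genes. Of those, 1.19% passed, 13.5% had an unadjusted p under 0.05 and 50.1% were below 0. Of 7 activators, 0 passed in edgeR and 0 had an unadjusted p under 0.05, and Cks1b, a CDK subunit needed for the turnover of p27, had the smallest p (log2 fold change −0.13, SE 0.066, edgeR adjusted p = 0.424). Of 2 tested inhibitory kinases, 0 passed and 1 had an unadjusted p under 0.05. Pkmyt1, which phosphorylates CDK1 and holds it inactive, was at 558.89, 614.57 and 726.09 normalized counts in the Control and at 478.91, 504.25 and 354.48 in the Prmt1-null libraries. All 3 Prmt1-null libraries were lower, but the log2 fold change of −0.51 (SE 0.155) had an adjusted p of 0.144. Of 7 CDK inhibitors, 0 passed in edgeR and 2 had an unadjusted p under 0.05, with 6 below 0. The exception in sign was Cdkn1a, which encodes p21, an inhibitor of CDK2 complexes. It was at 635.43, 724.32 and 630.23 in the Control and at 1042.9, 774.34 and 1110.7 in the Prmt1-null libraries, higher in all 3. Its log2 fold change was 0.56 (SE 0.138, adjusted p = 0.0749), and the DESeq2 Wald test gave an adjusted p of 0.00499, in a range of 0.00135 to 0.126 over 7 alternatives. Of 18 genes for the destruction of cyclins, 0 passed, 4 had an unadjusted p under 0.05 and 13 were below 0. Fbxo31, which encodes an F-box protein that targets cyclin D1, had the smallest p, at 328.04, 349.43 and 382.33 against 467.78, 510.7 and 449 normalized counts (log2 fold change 0.43, SE 0.134, adjusted p = 0.155).

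These counts depended on the tool and the filter. With DESeq2's Wald test 7 of the 80 listed genes that it gave an adjusted p passed (8.75%), Ccnb2, Pkmyt1, Cdkn1a, Fbxo5, Rb1, E2f2 and E2f7, against 5.76% of all genes with an adjusted p. With limma-voom 1 of 89 passed, E2f2, against 1.37% of all tested genes. Among the 10 members Ccne2 alone passed with each of the 3 tools.

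**Figure D5:**
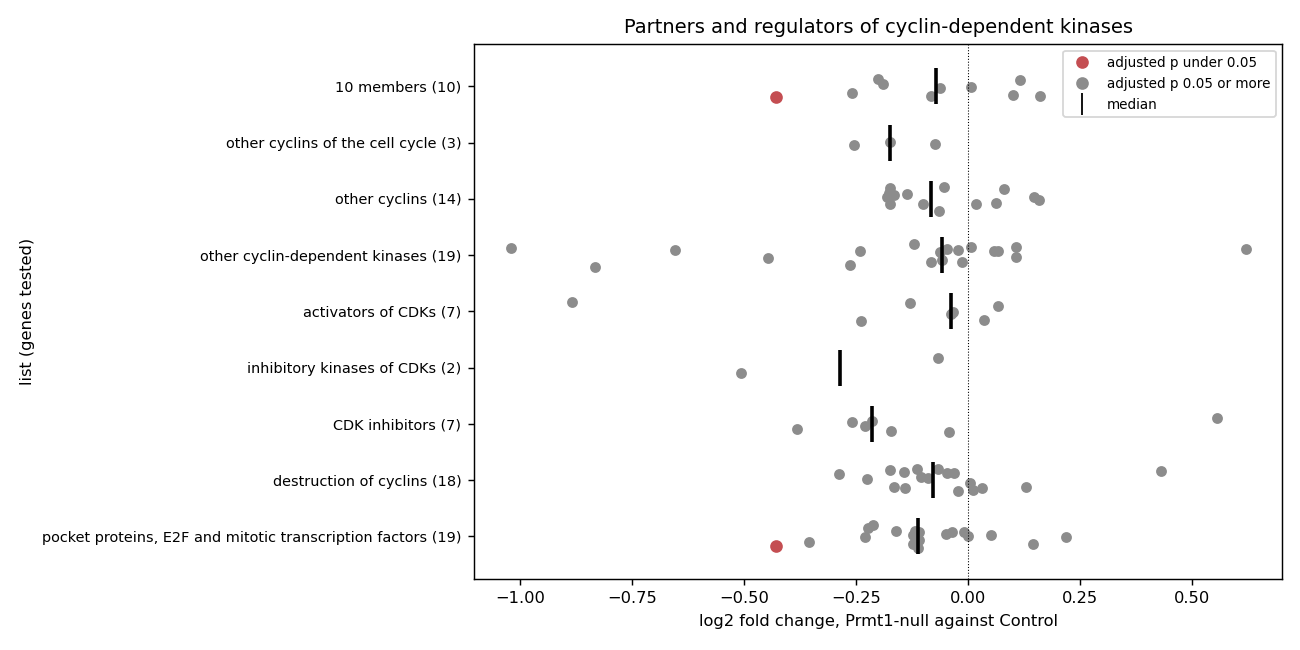
Log2 fold changes (horizontal axis, Prmt1-null against Control) of the 10 genes and of the tested genes of 8 lists of partners and regulators, 1 point per gene, with the number tested in brackets and vertical lines for the medians. Red points, Ccne2 and E2f2, have an adjusted p under 0.05, and the medians of all 9 rows lie below 0, between −0.287 and −0.0391.

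The tested genes whose levels followed Ccne2 most closely over the 6 libraries, by Pearson's r of log2 CPM among 13091 genes with a mean over 100 normalized counts, were Cenpp (r = 0.994), Zfp280d (r = 0.993) and Ncaph (r = 0.992). The 6 points include the difference between the groups, so any gene that moved the same way tends to a high r. Ncaph, a condensin I subunit of mitotic chromosomes, was at 7315.4, 7051.8 and 6418 normalized counts in the Control and at 5272.1, 5665.6 and 5601.7 in the Prmt1-null libraries and fell by 0.33 on the log2 scale (SE 0.064, edgeR adjusted p = 0.0267). Cenpp, a centromere protein gene (log2 fold change −0.36, adjusted p = 0.264), and Zfp280d, a zinc finger gene (log2 fold change −0.26, adjusted p = 0.102), did not pass. All 3 shared with Ccne2 a Control replicate 3 that was the lowest of its group.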

How the data were processed

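Total RNA of 3 Control and 3 Prmt1-null iGB cultures was sequenced from rRNA-depleted stranded libraries. Per the labels and the study's methods, the authors used Trimmomatic 0.32, STAR 2.3.0e on mm10 (GRCm38) and featureCounts 1.4.4. The authors deposited raw counts, whole numbers per gene without normalization. The strand setting of the counting is not given in the sources used here.

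Groups, sexes and replicate numbers came from the labels. In R 4.3.3 with edgeR 4.0.16, 398 chromosome Y genes were left out, filterByExpr with a minimum count of 10 kept 18268 genes, counts were normalized by TMM (factors 0.9855 to 1.013), and groups were compared by the quasi-likelihood test. The SE is the log2 fold change over the square root of F. Exon lengths came from GENCODE M21 on GRCm38, in which 37607 genes matched by ID and 804 by symbol, with 606 unmatched. The fit was tested on simulated data. DESeq2 1.42.0 and limma 3.58.1 were alternatives, with other settings given in the closing section. Counting precision at these depths covers counting error only, as reads carry no molecular identifiers.

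Members and lists were chosen with earlier results of these data known. Named are all members, Prmt1, Ccnd1, Ccnb2 and Cdkn1a, each list's genes past the threshold or else its smallest p, and the 3 genes most like Ccne2. Overlapping neighbours, marker genes and genes called by DESeq2 or without the filter were named after their values were seen.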

Additional observations from a re-analysis of the deposited data

How the results depend on the processing

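Over all tested genes, 218 passed, against 746 with the DESeq2 Wald test, 710 (2.76% of those tested) with no filter on low counts and 31 to 350 with 1 library left out (128, 60 and 350 without Control replicates 1, 2 and 3, and 51, 31 and 77 without Prmt1-null replicates 1, 2 and 3). Of the 10 members, Ccne2 alone passed with DESeq2, limma-voom, DESeq2's size factors in edgeR, no filter, the replicate block, sex as a covariate and chromosome Y genes kept, with adjusted p from 1.809e-05 to 0.0478. With 1 library left out, 0 to 1 members passed, and with the female libraries only, a fit added after the values were seen, 0 passed and 113 genes in all. Of the listed genes, 1 passed, against 7 with DESeq2, 6 (6.38%) with no filter (Ccnb2, Pkmyt1, Cdkn1a, Rb1, E2f2 and E2f8) and 0 to 3 with 1 library left out (0 without Prmt1-null replicate 2, and 3, namely E2f2, Rb1 and E2f8, without Control replicate 3).

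With 1 library left out, the log2 fold changes ran from −0.098 to 0.0087 for Ccnd2, −0.166 to 0.0089 for Ccnb1, −0.028 to 0.062 for Cdk1 and −0.264 to 0.049 for Ccnd1. These values near 0 changed sign, and none of these passed in any fit. Ccnb1 went from −0.08 to 0.0089 without Control replicate 1, and Ccnd2 from −0.06 to 0.0087 without Prmt1-null replicate 2. Cdk1 went from 0.0052 to −0.0020 without Control replicate 2, −0.010 without Prmt1-null replicate 2, −0.028 without Prmt1-null replicate 3 and −0.014 in females only. Ccnd1 went from −0.07 to 0.049 without Control replicate 2 and 0.017 without Control replicate 3. The log2 difference of the Cdk6 to Cdk4 ratio ran from −0.109 to 0.0235. Prmt1 stayed between −1.52 and −1.33. With 1 library left out, an arm of 2 remained. Of 196 values of single genes, 177 kept their sign and side of the threshold, 7 lost the call, 4 gained one and 8 changed sign. The cause of these changes was not tested.

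Replicate numbers were shared between the groups, but the deviations of same-numbered libraries correlated at −0.202, 0.137 and −0.235, over 0.1 in 1 of 3 pairs, and 0 of 6 libraries correlated best with its own number. With the replicate block 152 genes passed, Ccne2 among them with a log2 fold change of −0.42 and an adjusted p of 0.0478, and 1 listed gene.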
